A study of Mus musculus with 4 samples.

Results

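The 9 genes described here are known markers of fibroblasts of the meninges, the membranes around the spinal cord, and were listed by symbol: Ptgds, Dcn, Lum, Ogn, Fmod, Mfap4, Slc6a13, Aldh1a2 and Foxc1. Collagen genes were kept apart. All 9 were present among the 21249 genes of the deposited tables, and no threshold on level was part of the rule. RNA was sequenced from whole spinal cord of mice at postnatal day 8, in 2 cKO and 2 Ctrl libraries. The cKO genotype was Chd7f/f; Olig1-cre and the Ctrl genotype was Chd7f/+; Olig1-cre, on a mixed strain background in both. All 4 libraries thus came from animals with a Cre recombinase expressed from Olig1, a gene of oligodendrocyte lineage cells and of the progenitors of motor neurons, and the Ctrl animals also carried 1 floxed allele of Chd7, a chromatin remodeler gene. The labels do not say whether the meninges or nerve roots were taken off before freezing, or whether the libraries of a group came from separate animals, so the p-values below may measure technical spread.

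Meningeal fibroblasts arise from mesoderm and neural crest and lay down the collagen-rich sheets that wrap the cord. They secrete small leucine-rich proteoglycans, which bind collagen fibrils and set their diameter and spacing. They also release prostaglandin D synthase and retinoic acid, and they carry transporters that take up GABA and related solutes from the cerebrospinal fluid.

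Levels are given as FPKM, fragments scaled to transcript length and to the mapped fragments of the library, summed over the RefSeq transcripts of each gene. Relative depth was 2.22 in cKO_1, 3.19 in cKO_2, 2.07 in Ctrl_1 and 1.0 in Ctrl_2, so Ctrl_2 gave the least precise values. Chd7 was at 2.52 and 3.38 FPKM in cKO_1 and cKO_2, against 3.52 and 3.12 FPKM in Ctrl_1 and Ctrl_2 (limma adjusted p = 0.657). This checks the genotypes little, because the floxed part is not given in the labels, Ctrl is heterozygous and most cells of the cord lie outside the Olig1 lineage.

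Most of the 9 genes were lower in cKO cords, but the size of the difference depended largely on 1 control library, Ctrl_1. In the comparison of 2 cKO with 2 Ctrl libraries, 6 of the 9 genes fell (Ptgds, Mfap4, Dcn, Slc6a13, Ogn and Fmod), none rose, and 3 did not pass (Lum, Foxc1 and Aldh1a2). At an unadjusted limma p below 0.05, 8 were lower and 0 higher, and 1777 of all 12913 genes tested were lower. Over all 12913 genes tested, 6.54% fell by the same rule, a limma adjusted p below 0.05. The median log2 fold change of the 9 genes was -0.98, against -0.0028 over all genes tested. Every one of the 9 had its highest level in Ctrl_1, as did 31.7% of all genes tested. With Ctrl_1 left out, 3 of the 9 fell (Ptgds, Mfap4 and Fmod), none rose, and the median was -0.31, while 5.77% of all genes fell and 3.58% rose. With robust moderation, which lets genes of unusual spread keep their own variance, 1 of the 9 fell (Fmod), against 7.68% of all genes. Under median-of-ratios scaling Ptgds and Mfap4 fell. With no filter on low values none of the 9 did (limma, 2 lower at an unadjusted p below 0.05, as were 1839 of all genes). In whole cord, fewer meningeal cells in a sample and less RNA per cell cannot be told apart.

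All 9 genes passed the filter of a mean of 1 FPKM over the 4 libraries. Lum, Ogn and Slc6a13 passed through Ctrl_1 alone, since their means over the other libraries were 0.892, 0.346 and 0.640 FPKM. Ogn and Slc6a13 are among the 6 genes that fell, and a high Ctrl_1 was a condition of their being tested. The smallest p that an exact two-sided permutation test can give with 2 libraries against 2 is 0.333, so single genes were not tested that way. The limma p-values rest on a spread pooled over genes, with 36.3 prior and 2 residual degrees of freedom.

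**Figure D1:**
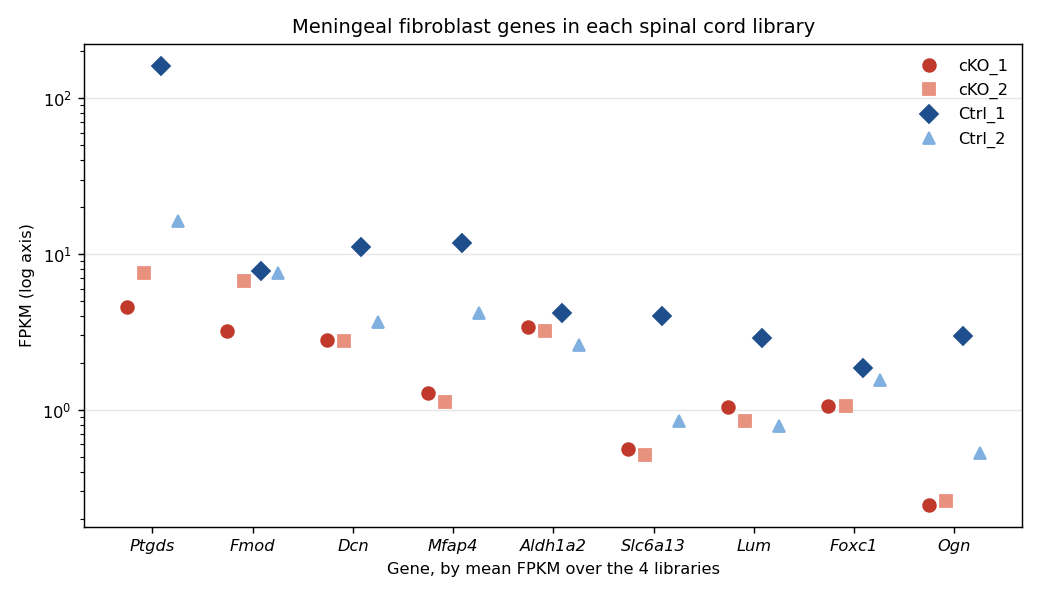
FPKM on a log axis for each of the 9 genes in each library, with circles for cKO_1, squares for cKO_2, diamonds for Ctrl_1 and triangles for Ctrl_2. Ctrl_1 is the highest library for every gene, and Ctrl_2 lies close to the cKO libraries for Lum, Aldh1a2 and Dcn.

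The sequence around the annotated start is shown for 4 of the genes, a pair that fell and whose levels differed widely between the 2 control libraries, and a pair that did not pass. Such windows, of 250 bases before to 50 bases after the start on GRCm38.p6, were found for 6 of the 9 genes (Ptgds, Ogn, Fmod, Slc6a13, Aldh1a2 and Foxc1). Ptgds (chr2:25469700-25469999, minus strand) and Ogn (chr13:49607765-49608064, plus strand) were the pair that fell. Foxc1 (chr13:31806396-31806695, plus strand) and Aldh1a2 (chr9:71215539-71215838, plus strand) did not pass. Each is written 5′ to 3′ along its gene, and capitals mark CG dinucleotides.
Ptgds: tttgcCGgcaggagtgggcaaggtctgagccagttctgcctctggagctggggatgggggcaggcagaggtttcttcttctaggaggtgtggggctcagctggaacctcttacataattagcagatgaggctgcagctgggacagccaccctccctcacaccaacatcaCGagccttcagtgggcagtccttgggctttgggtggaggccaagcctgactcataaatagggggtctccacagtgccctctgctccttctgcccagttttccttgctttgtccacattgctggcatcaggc
Ogn: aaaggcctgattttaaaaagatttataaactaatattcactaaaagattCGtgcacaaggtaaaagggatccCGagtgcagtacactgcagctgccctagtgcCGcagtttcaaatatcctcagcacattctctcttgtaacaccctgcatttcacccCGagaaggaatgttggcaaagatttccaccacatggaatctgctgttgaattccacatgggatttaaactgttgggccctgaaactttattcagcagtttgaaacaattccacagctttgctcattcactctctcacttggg
Foxc1: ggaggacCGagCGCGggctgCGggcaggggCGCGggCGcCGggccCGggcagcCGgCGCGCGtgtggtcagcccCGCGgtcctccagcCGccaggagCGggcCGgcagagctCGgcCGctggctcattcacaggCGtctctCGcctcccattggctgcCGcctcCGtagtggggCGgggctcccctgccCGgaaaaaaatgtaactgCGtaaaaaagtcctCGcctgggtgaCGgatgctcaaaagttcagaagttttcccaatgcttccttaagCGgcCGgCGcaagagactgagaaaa
Aldh1a2: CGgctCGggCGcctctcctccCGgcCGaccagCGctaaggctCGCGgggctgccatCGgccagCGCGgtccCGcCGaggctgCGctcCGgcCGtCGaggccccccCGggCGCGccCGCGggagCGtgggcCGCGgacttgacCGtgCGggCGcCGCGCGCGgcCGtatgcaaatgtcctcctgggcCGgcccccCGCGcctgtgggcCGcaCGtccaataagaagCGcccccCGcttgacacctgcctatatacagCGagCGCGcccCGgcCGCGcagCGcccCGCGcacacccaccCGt

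The Ptgds window held 2 CG dinucleotides and the Ogn window 4, against 32 in the Foxc1 window and 50 in the Aldh1a2 window. The median over 32851 RefSeq windows of this length was 7. Fmod held 3, and the windows at the 3 annotated starts of Slc6a13 held 11, 7 and 2. The forkhead core GTAAACA, searched on both strands, was in none of the 8 windows of the 6 genes and in 3.65% of all windows. TATAAA, also searched on both strands, matched at 2 overlapping places of the Ogn window, 229 and 227 bases before the start, and in 13.6% of all windows. GGGCGG, searched in the same way, matched 79 bases before the Foxc1 start. It also matched 187 and 50 bases before the start in the Slc6a13 window with 11 CG dinucleotides, and in 35.7% of all windows. No match says only that these letters are not in the window.

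Ptgds encodes the lipocalin-type prostaglandin D synthase, a secreted protein of the meninges that is also made by oligodendrocytes and by the choroid plexus. It was at 4.57 and 7.54 FPKM in cKO_1 and cKO_2, against 161 and 16.2 FPKM in Ctrl_1 and Ctrl_2. Both cKO libraries lay below both Ctrl libraries, and the 2 Ctrl libraries differed by more than either cKO library did from Ctrl_2. The means were 6.05 ± 2.10 FPKM in cKO and 88.5 ± 102 FPKM in Ctrl (SD, n = 2 each). The log2 fold change, taken here and below on FPKM + 1, was -2.93 ± 0.41 (SE, limma adjusted p = 2.14e-06). Without Ctrl_1 it was -1.32, from a fit with 1 Ctrl library that cannot measure the spread between controls. With robust moderation the limma adjusted p was 0.475. The Ctrl_1 level was 9.93-fold that of Ctrl_2. Ranked by the log2 difference between Ctrl_1 and Ctrl_2, Ptgds was number 3 of the 12913 genes. Its transcript was covered by a mean of 7.27 and 17.2 reads per base in cKO_1 and cKO_2, against 239 and 11.6 in Ctrl_1 and Ctrl_2.

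Mfap4 encodes a glycoprotein of elastic fibres and microfibrils. Its level was 1.28 and 1.12 FPKM in cKO_1 and cKO_2, against 11.8 and 4.19 FPKM in Ctrl_1 and Ctrl_2. The cKO libraries were alike, and the nearest Ctrl library lay 3.28-fold above the higher of them, the widest gap between groups among the 9 genes. The log2 fold change was -1.89 ± 0.21 (SE, limma adjusted p = 4.21e-08) with all libraries and -1.24 without Ctrl_1. With robust moderation it did not pass (limma adjusted p = 0.255).

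Both cKO libraries lay below both Ctrl libraries for 7 of the 9 genes (all but Lum and Aldh1a2), against 29.3% of all genes tested. A gap between the groups of at least 1.5-fold was found for Ptgds, Mfap4, Ogn and Slc6a13, 4 of the 9, against 2.84% of all genes. Ogn and Slc6a13 were tested through Ctrl_1 alone, so this count is not independent of the filter. Set against Ctrl_2 alone, both cKO libraries were lower by at least 1.5-fold for the same 4 genes, against 4.78% of all genes.

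Dcn, Lum, Ogn and Fmod encode small leucine-rich proteoglycans. Dcn, decorin, binds collagen fibrils and TGF-beta. Dcn was at 2.79 and 2.76 FPKM in cKO_1 and cKO_2, against 11.2 and 3.66 FPKM in Ctrl_1 and Ctrl_2. The cKO libraries agreed closely, and Ctrl_2 lay nearer to them than to Ctrl_1. Its log2 fold change of -0.996 ± 0.22 (SE, limma adjusted p = 0.00162) was -0.31 ± 0.17 without Ctrl_1 and did not pass (limma adjusted p = 0.321). Of its 2 transcripts, the shorter made up 0.00342% and 20.4% of the sum in cKO_1 and cKO_2, against 12.4% and 1.63% in Ctrl_1 and Ctrl_2. That share varied as much within each genotype as between them, and it is an estimate of the authors' software, because the transcripts share most of their reads.

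Lum, lumican, keeps fibrils thin and evenly spaced in the cornea. Its level was 1.04 and 0.849 FPKM in cKO_1 and cKO_2, against 2.89 and 0.789 FPKM in Ctrl_1 and Ctrl_2. Ctrl_2 was the lowest of the 4 libraries and Ctrl_1 the highest. On the log2 scale the change was -0.44 ± 0.20 (SE) with all libraries and 0.12 ± 0.17 without Ctrl_1, and neither passed (limma adjusted p = 0.168 and 0.799).

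Ogn, osteoglycin, was the lowest of the 9 genes in cKO cords. Ogn was at 0.246 and 0.261 FPKM in cKO_1 and cKO_2, against 2.99 and 0.532 FPKM in Ctrl_1 and Ctrl_2. The groups did not overlap, but at a mean depth of 0.391 and 0.597 reads per base in cKO_1 and cKO_2, against 4.45 and 0.381 in Ctrl_1 and Ctrl_2, 3 libraries covered the transcript less than once. For Ogn the log2 fold change of -0.98 ± 0.22 (SE, limma adjusted p = 0.00272) was -0.29 ± 0.17 without Ctrl_1 and did not pass (limma adjusted p = 0.351). Ogn lies inside the locus of Cenpp, a centromere protein gene, and reads that overlap both could be counted for either. Cenpp was at 2.20 and 2.09 FPKM in cKO_1 and cKO_2, against 1.89 and 2.51 FPKM in Ctrl_1 and Ctrl_2 (limma adjusted p = 0.957).

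Fmod, fibromodulin, was the proteoglycan for which the 2 Ctrl libraries agreed. Fmod was at 3.21 and 6.74 FPKM in cKO_1 and cKO_2, against 7.73 and 7.58 FPKM in Ctrl_1 and Ctrl_2. Here the cKO libraries differed by 2.10-fold, and cKO_2 lay 1.12-fold below Ctrl_2. With all libraries the log2 fold change was -0.60 ± 0.18 (SE, limma adjusted p = 0.0240), and it was -0.59 ± 0.18 without Ctrl_1. Without cKO_1 it was -0.16 and did not pass (limma adjusted p = 0.922), so the call rests on cKO_1.

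The make-up of the proteoglycan group differed between libraries. Fmod made up 44.1% and 63.5% of the summed FPKM of Dcn, Lum, Ogn and Fmod in cKO_1 and cKO_2, against 31.2% and 60.3% in Ctrl_1 and Ctrl_2. Lum was 4.22-fold and 3.25-fold the level of Ogn in cKO_1 and cKO_2, against 0.964-fold and 1.48-fold in Ctrl_1 and Ctrl_2. These ratios rest on few reads and were not tested. Ogn was covered by a mean of 0.391, 0.597 and 0.381 reads per base in cKO_1, cKO_2 and Ctrl_2, and Lum by 0.565 in Ctrl_2. Both genes passed the filter through Ctrl_1 alone. The 4 proteoglycans together came to 7.28 and 10.6 FPKM in cKO_1 and cKO_2, against 24.8 and 12.6 FPKM in Ctrl_1 and Ctrl_2.

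Slc6a13 encodes the GABA transporter GAT2 of the leptomeninges. Its level was 0.559 and 0.510 FPKM in cKO_1 and cKO_2, against 4.00 and 0.850 FPKM in Ctrl_1 and Ctrl_2. The groups did not overlap, and Ctrl_2 lay 1.52-fold above cKO_1. Its log2 fold change of -0.99 ± 0.23 (SE, limma adjusted p = 0.00285) was -0.27 ± 0.17 without Ctrl_1 and did not pass (limma adjusted p = 0.401).

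Aldh1a2 encodes a retinaldehyde dehydrogenase that makes retinoic acid in the meninges and, during development, in motor neurons. Aldh1a2 was at 3.41 and 3.19 FPKM in cKO_1 and cKO_2, against 4.17 and 2.62 FPKM in Ctrl_1 and Ctrl_2. Both cKO libraries fell between the 2 Ctrl libraries. The log2 fold change was -0.01 ± 0.16 (SE, limma adjusted p = 0.984), and 0.25 ± 0.17 without Ctrl_1.

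Foxc1 encodes a forkhead transcription factor needed to form the meninges. Its level was 1.06 and 1.05 FPKM in cKO_1 and cKO_2, against 1.87 and 1.56 FPKM in Ctrl_1 and Ctrl_2. All libraries of a group were alike and the groups did not overlap, with Ctrl_2 1.47-fold above cKO_1. At this low level neither the log2 fold change of -0.40 ± 0.16 with all libraries (SE, limma adjusted p = 0.101) nor the -0.32 ± 0.17 without Ctrl_1 (limma adjusted p = 0.289) passed.

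**Figure D2:**
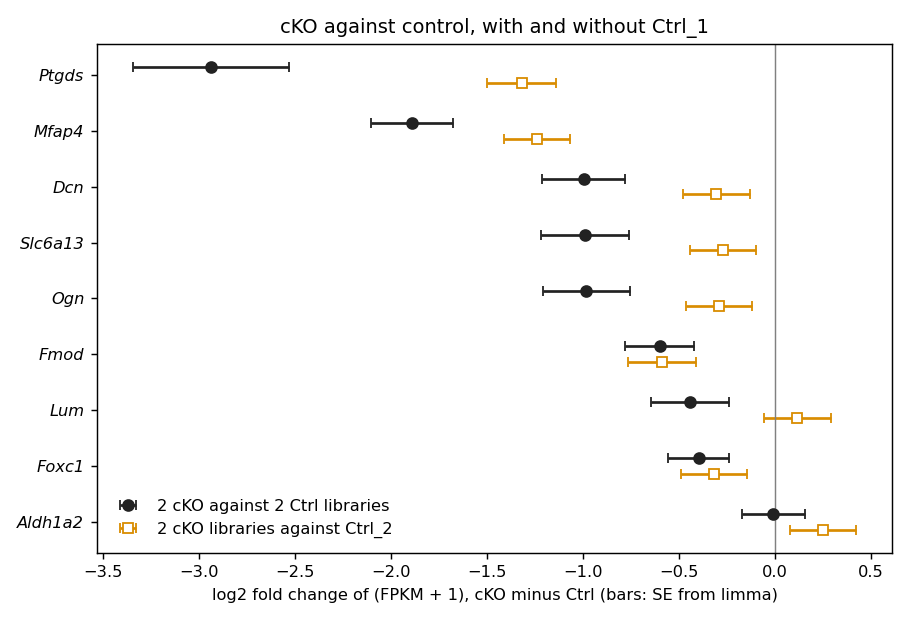
Log2 fold change on FPKM + 1, cKO minus Ctrl, for the 9 genes with all 4 libraries (filled circles) and with Ctrl_1 left out (open squares), with standard errors from limma as bars. Leaving out Ctrl_1 moves Dcn, Slc6a13 and Ogn to between -0.31 and -0.27, while Fmod stays at -0.59.

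The order of the 9 levels differed between libraries below the first place. Ptgds was the highest in every library. In Ctrl_1 it was followed by Mfap4, Dcn and Fmod, whereas Mfap4 ranked number 5 in both cKO libraries, below Dcn. In cKO_1 the second place was held by Aldh1a2, at 3.41 FPKM, just above Fmod at 3.21 FPKM, a gap within the spread of Fmod between cKO libraries. Ogn was last in cKO_1, cKO_2 and Ctrl_2, and Foxc1 was last in Ctrl_1.

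The difference between the 2 Ctrl libraries was described for each gene, with no test. Ctrl_1 was at least 1.5-fold above Ctrl_2 for 7 of the 9 genes, against 2.43% of all genes tested. Of these 7, 3 (Lum, Ogn and Slc6a13) passed the filter on level through Ctrl_1 alone. Their high ratios, which also enter the median below, were thus favoured by the filter. The others were Ptgds, Dcn, Mfap4 and Aldh1a2. The ratio of Ctrl_1 to Ctrl_2 was 9.93 for Ptgds, 5.63 for Ogn, 4.71 for Slc6a13, 3.66 for Lum, 3.04 for Dcn and 2.81 for Mfap4. It was 1.59 for Aldh1a2, 1.19 for Foxc1 and 1.02 for Fmod. The median of the 9 ratios was 3.04, against 1.02 over all genes. Between the 2 cKO libraries, Ptgds and Fmod differed by at least 1.5-fold, both higher in cKO_2. Without Ptgds, the other 8 genes summed to 13.6 and 16.5 FPKM in cKO_1 and cKO_2, against 46.6 and 21.8 FPKM in Ctrl_1 and Ctrl_2.

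**Figure D3:**
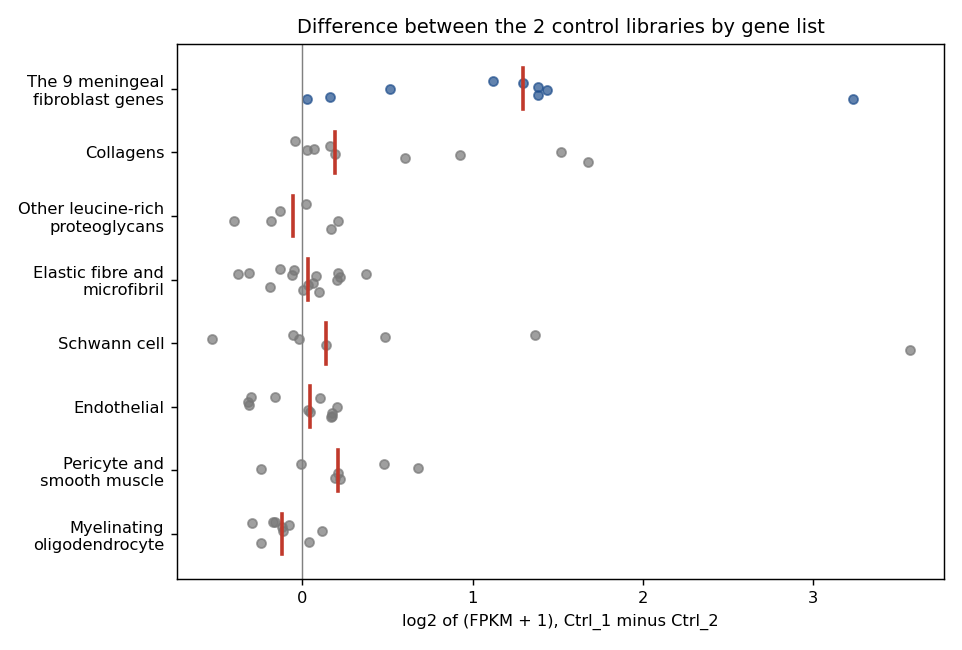
Log2 difference on FPKM + 1, Ctrl_1 minus Ctrl_2, for each tested gene of the 9 meningeal genes and of 7 other lists, with red bars at the list medians. All 9 genes lie to the right of 0, from Fmod at 0.025 to Ptgds at 3.23.

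Genes with which these 9 work were listed by pathway. Of the other small leucine-rich proteoglycans, 14 were in the tables and 6 passed the filter, none of which rose or fell by limma (1 at an unadjusted p below 0.05, median log2 fold change 0.07). Bgn, biglycan, a close relative of decorin, was at 21.3 and 31.1 FPKM in cKO_1 and cKO_2, against 26.9 and 29.7 FPKM in Ctrl_1 and Ctrl_2 (limma adjusted p = 0.692). Chadl, a chondroadherin relative, was at 27.0 and 28.2 FPKM in cKO_1 and cKO_2, against 21.7 and 29.1 FPKM in Ctrl_1 and Ctrl_2 (limma adjusted p = 0.690). Both were well above Dcn per length in the same libraries, and neither followed the Ctrl_1 peak of Dcn.

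The proteoglycan genes sit in clusters, and their neighbours were measured too. On mm9, Dcn (chromosome 10, 96942134 to 96980796) and Lum (chromosome 10, 97028135 to 97035337) lie 47338 bases apart. Kera and Epyc, the next proteoglycan genes of that cluster, were at or below 0.0614 FPKM in every library. Ogn (chromosome 13, 49703440 to 49719869) has Omd, Aspn and Ecm2 on one side. Omd, osteomodulin, 15461 bases away, was at 0.237 and 0.322 FPKM in cKO_1 and cKO_2, against 0.667 and 0.243 FPKM in Ctrl_1 and Ctrl_2, and was too low to test. Ecm2 did not pass (limma adjusted p = 0.123). Of all 7 genes tested within 300000 bases of Ogn, 4 fell and 0 rose, against 6.54% and 4.13% of all genes. The median change of the 7 on the log2 scale was -0.49, and -0.40 without Ctrl_1. The 4 were Fgd3, Iars, Ippk and Nol8 (limma adjusted p = 3.53e-06, 0.00721, 0.0269 and 0.0303), and without Ctrl_1 Fgd3 passed and the others did not (limma adjusted p = 1.28e-11, 0.0664, 0.136 and 0.138). Fgd3 was at 1.44 and 2.87 FPKM in cKO_1 and cKO_2, against 5.55 and 6.60 FPKM in Ctrl_1 and Ctrl_2, so its Ctrl libraries did not share the Ctrl_1 peak of Ogn. Near Fmod (chromosome 1, 135934092 to 135944854), Prelp and Optc did not pass (limma adjusted p = 0.446 and 0.503), and of 8 tested genes within that distance 1 fell, Chi3l1 (limma adjusted p = 7.29e-04, and 1.33e-04 without Ctrl_1). The nearest neighbour of Foxc1 (chromosome 13, 31898515 to 31902504), Gmds, was at 7.74 and 7.34 FPKM in cKO_1 and cKO_2, against 6.58 and 7.19 FPKM in Ctrl_1 and Ctrl_2. Within the same distance of Ptgds 2 of 28 tested genes fell (Abca2 and Tprn), near the share over all genes, and of Mfap4 1 of 8 (Grap).

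Collagens that these proteoglycans bind shared part of the pattern. Of 9 listed collagen genes, 3 fell, against 6.54% of all genes, and none rose (median log2 fold change -0.41, and -0.39 without Ctrl_1). Col1a1 was at 2.85 and 2.44 FPKM in cKO_1 and cKO_2, against 20.7 and 5.77 FPKM in Ctrl_1 and Ctrl_2 (limma adjusted p = 2.83e-06). Its log2 fold change of -1.74 was -0.90 without Ctrl_1, and with robust moderation Col1a1 did not pass (limma adjusted p = 0.424). Col3a1 and Col1a2 also fell, by 1.19 and 0.87 on the log2 scale, and without Ctrl_1 their changes were -0.43 and -0.40. With robust moderation Col3a1 did not pass and Col1a2 did (limma adjusted p = 0.523 and 7.94e-06).

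Partners of the other members were listed as well. Of 15 tested genes of elastic fibres and microfibrils, 1 fell (Mfap5), near the 6.54% of all genes, and none rose (median -0.14). Mfap5 was at 0.717 and 0.738 FPKM in cKO_1 and cKO_2, against 1.61 and 1.44 FPKM in Ctrl_1 and Ctrl_2 (limma adjusted p = 0.0187). It passed the filter on level through Ctrl_1 alone, since its mean over the other libraries was below 1 FPKM. Of 15 tested retinoic acid genes, 3 rose and none fell (median 0.03), while 4.13% of all genes rose. These were Crabp1, a retinoic acid binding protein, Cyp26b1, which breaks retinoic acid down, and Stra6, a retinol uptake receptor, by 0.85, 0.60 and 0.59 on the log2 scale (limma adjusted p = 0.00251, 0.00965 and 0.0135). Without Ctrl_1, Crabp1 did not pass (limma adjusted p = 0.0626). None of the 3 was highest in Ctrl_1, with Cyp26b1 at 4.65 and 3.62 FPKM in cKO_1 and cKO_2, against 2.68 and 2.11 FPKM in Ctrl_1 and Ctrl_2. None of 9 tested genes of prostaglandin synthesis and reception passed limma (2 at an unadjusted p below 0.05, median -0.09), among them Ptges3 (limma adjusted p = 0.799) and Ptges2 (limma adjusted p = 0.323). None of 7 tested carriers of GABA, taurine and meningeal solutes passed limma (3 at an unadjusted p below 0.05, median 0.28). The astrocyte GABA transporter Slc6a11 was at 345 and 365 FPKM in cKO_1 and cKO_2, against 242 and 231 FPKM in Ctrl_1 and Ctrl_2 (limma adjusted p = 0.0863), in every library far above Slc6a13 per length.

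Of 8 tested transcription factors of mesenchyme and meninges, 2 fell, among them Prrx1, against 6.54% of all genes, and none rose (median 0.08). Prrx1 was at 1.68 and 1.65 FPKM in cKO_1 and cKO_2, against 3.61 and 3.19 FPKM in Ctrl_1 and Ctrl_2 (limma adjusted p = 0.00123). Like Foxc1, it had Ctrl libraries that were alike. Of 21 other fibroblast and leptomeningeal genes tested, 5 fell and 3 rose (median 0.01), against 6.54% and 4.13% of all genes. Islr (limma adjusted p = 9.97e-06), Igf2 (limma adjusted p = 3.71e-04) and Cldn11 (limma adjusted p = 4.45e-04) were lower and Igfbp2 (limma adjusted p = 0.00260) higher. Without Ctrl_1, Igf2 and Igfbp2 did not pass (limma adjusted p = 0.0792 and 0.147). Cldn11 is also a myelin gene, so its value does not speak for meninges alone. Islr, a leucine-rich repeat protein of fibroblasts, was at 1.28 and 2.13 FPKM in cKO_1 and cKO_2, against 5.23 and 4.15 FPKM in Ctrl_1 and Ctrl_2.

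The genes most like Ptgds and most like the other 8 were found by the Euclidean distance between log2(FPKM + 1) values, centred on their mean over the 4 libraries. Among the 6 genes nearest to Ptgds were Col1a1, Col3a1, Pmp22, Egr1 and H2-Bl, at distances of 1.72 to 2.45 on the log2 scale. Nearest to the median profile of the other 8 genes were Egr1, Col1a2, Aebp1, Pmp22, Cyr61 and Igf2, at 0.212 to 0.355. Aebp1, a collagen-binding protein of connective tissue, was at 0.931 and 1.17 FPKM in cKO_1 and cKO_2, against 4.85 and 1.96 FPKM in Ctrl_1 and Ctrl_2.

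**Figure D4:**
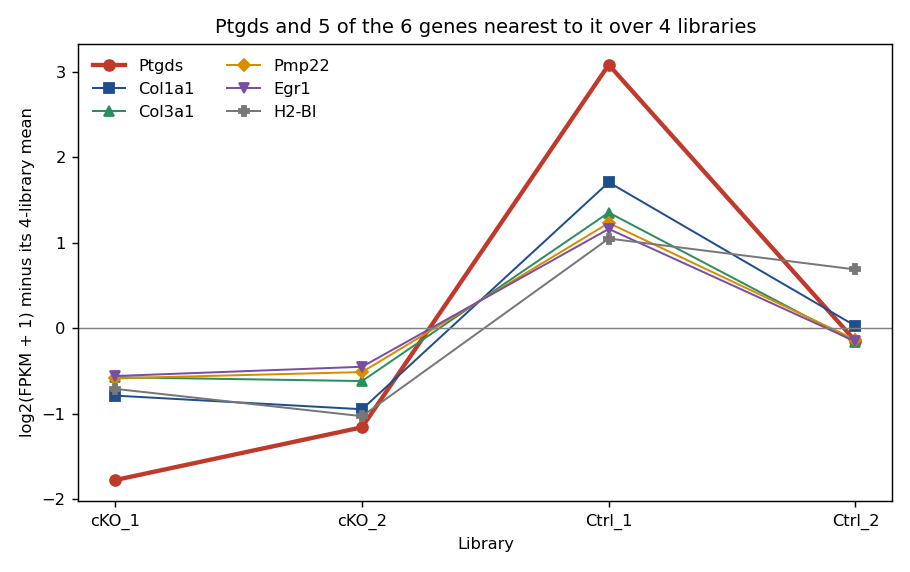
Log2(FPKM + 1) minus its mean over the 4 libraries, for Ptgds and 5 of the 6 genes nearest to it, with lines only to guide the eye between libraries. All 6 genes drawn peak in Ctrl_1, while H2-Bl is also high in Ctrl_2.

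Markers of other cells were summed beside these values. Schwann cell markers (12 listed, none at 0) summed to 140 and 213 FPKM in cKO_1 and cKO_2, against 424 and 371 FPKM in Ctrl_1 and Ctrl_2, of which Mal and Sox10 are shared with oligodendrocytes. The peripheral myelin genes Prx and Pmp2 were at 0.358 and 0.0918 FPKM in cKO_1 and at 0.338 and 0.0330 FPKM in cKO_2, against 2.21 and 3.34 FPKM in Ctrl_1 and 0.467 and 0.106 FPKM in Ctrl_2. They were thus high in the same library as Ptgds, Ogn and Slc6a13, and their part in the results was not tested. Other Schwann cell markers did not peak there, with Cdh19 at 2.30 and 2.35 FPKM and Sox10 at 59.1 and 85.9 FPKM in Ctrl_1 and Ctrl_2. Of 7 tested, Ctrl_1 was at least 1.5-fold above Ctrl_2 for 3, against 2.43% of all genes. Of the same 7, 5 fell and 1 rose (Sostdc1, limma adjusted p = 0.0385), against 6.54% and 4.13% of all genes. Of 9 myelinating oligodendrocyte markers 8 fell, with sums of 6223 and 9803 FPKM in cKO_1 and cKO_2, against 15281 and 17399 FPKM in Ctrl_1 and Ctrl_2. Oligodendrocytes also express Ptgds, and their part in its level was not tested. The median ratio of Ctrl_1 to Ctrl_2 was 0.919 over the 9 oligodendrocyte markers, against 9.93 for Ptgds. Without Ctrl_1, the log2 fold changes of these markers ran from -2.12 (Opalin) to -1.07 (Mbp), with a median of -1.31. That of Ptgds was -1.32 in the same fit, which holds 1 Ctrl library.

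Markers of vessels, blood and other tissues were summed in the same way. Endothelial markers summed to 165 and 132 FPKM in cKO_1 and cKO_2, against 152 and 164 FPKM in Ctrl_1 and Ctrl_2, with none of 11 passing limma (3 at an unadjusted p below 0.05). Pericyte and smooth muscle markers summed to 43.1 and 51.9 FPKM in cKO_1 and cKO_2, against 52.4 and 39.3 FPKM in Ctrl_1 and Ctrl_2, with none of 7 passing limma (3 at an unadjusted p below 0.05). Choroid plexus markers, which matter for Ptgds, summed to at most 7.10 FPKM in any library, with Ttr at 2.10 and 1.72 FPKM in cKO_1 and cKO_2, against 1.23 and 0.471 FPKM in Ctrl_1 and Ctrl_2. Sums of cartilage and bone markers ran to at most 9.99 FPKM and those of tendon and skeletal muscle markers to at most 9.43 and 4.51 FPKM. Dorsal root ganglion markers summed to 89.5 and 79.8 FPKM in cKO_1 and cKO_2, against 62.7 and 76.0 FPKM in Ctrl_1 and Ctrl_2. Most of each sum came from Prph and Calca, at 56.5 and 25.7 FPKM in cKO_1 and 35.3 and 22.5 FPKM in Ctrl_1. Avil, Scn10a and Trpv1 were at or below 0.187 FPKM in every library, so the sums say little about ganglion tissue. Blood markers, including near-identical hemoglobin genes that share reads, summed to 14.9 and 17.9 FPKM in cKO_1 and cKO_2, against 4.81 and 120.0 FPKM in Ctrl_1 and Ctrl_2. The high Ctrl_2 sum came from Hba-a2, Hbb-b1 and Alas2, at 86.6, 24.5 and 4.27 FPKM there. S100a8 and S100a9 were lowest in Ctrl_2, at 0.778 and 0.424 FPKM. Of 6 tested blood markers 3 fell and 3 rose, against 6.54% and 4.13% of all genes. Of 8 choroid plexus markers only 2 passed the filter, Ttr and Sostdc1, and both rose. Sostdc1 is the same gene that was counted above as the Schwann cell marker that rose. For ganglion 1 of 4 tested rose (Pou4f1), and for cartilage and bone 1 of 4 fell (Sp7), against the same shares of all genes.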

How the data were processed

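The deposited tables hold FPKM values per RefSeq transcript, 1 table for each of 4 libraries, in a Cufflinks layout per the file headers. The submitters' processing notes name CASAVA, TopHat, Cufflinks, Cuffdiff and the build mm9, without versions. Per the labels, Trizol was used for total RNA and a TruSeq RNA kit for the libraries. Whether counting used strand is not stated. The deposited coverage, a signal of mean read depth per base, is a fixed multiple of FPKM within a library, and that multiple gave relative depth.

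Of 28107 rows, 315 lacked the status OK in at least 1 library and were left out. FPKM was summed per gene over rows of at least 300 bases. Genes with a mean of at least 1 FPKM were tested on log2(FPKM + 1) with limma 3.58.1 in R 4.3.3 (genotype model, mean-variance trend, Benjamini-Hochberg adjustment over all 12913 genes, threshold 0.05). Fits without a library kept the same genes. In each of these the lone library of a group was assumed to vary as the others do.

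The members, lists and tests were chosen with earlier results of these data known. Named genes are all members, Chd7, up to 4 called genes of each pathway list (otherwise the 2 highest), and the 6 nearest to Ptgds and to the median of the other members. Some genes that this rule names are not reported here. Neighbouring genes, Cenpp, the Dcn transcript shares, the promoter windows and motifs, and the single markers named beside the marker sums were chosen after values were seen. The script was tested on simulated data. Coordinates on mm9 count from 1, and window sequences are from RefSeq on GRCm38.p6.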

Additional observations from a re-analysis of the deposited data

How the results depend on the processing

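Against 6 of the 9 genes that fell with all 4 libraries, 0 fell with no filter on low values or when short transcripts were included in the sums, 2 under median-of-ratios scaling, 2 under TPM scaling, 1 under quantile scaling, 2 with the highest transcript of each gene and 1 with robust moderation. Leaving out 1 library in turn gave 3 to 8 (3 without Ctrl_1). None of the 9 rose under any of the 15 alternatives, and none was higher at an unadjusted limma p below 0.05. Where 0 fell, 2 were lower at an unadjusted p below 0.05 with no filter and 3 with short transcripts included, as were 1839 and 1472 of all genes. In the same order, 0, 30, 566, 402, 426, 408 and 992 of all genes fell, against 845, and 1, 23, 390, 198, 310, 179 and 662 rose, against 533. Leaving out 1 library gave 274 to 919 lower and 111 to 557 higher, with both lowest counts without cKO_1. The median log2 fold change of the 9 genes was -1.18 with a pseudocount of 0.1, -1.15 under TPM scaling and -1.67 to -0.31 when 1 library was left out.

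Lum changed sign to 0.12 without Ctrl_1, and ran from -1.002 to 0.12 when 1 library was left out. Aldh1a2, at -0.01, was at 8.32e-04 under median-of-ratios scaling, 0.083 under quantile scaling, 0.25 without Ctrl_1 and 0.03 without cKO_2, and ran from -0.27 to 0.25 when 1 library was left out. Ptgds passed in 11 and Mfap4 in 12 of the 15 alternatives, Fmod in 8, Dcn, Ogn and Slc6a13 in 7 each, Lum and Foxc1 in 1 each (without Ctrl_2) and Aldh1a2 in none. The causes were not tested.

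The replicate numbers are shared by the groups, but nothing in the labels pairs the libraries, and the correlation of same-numbered deviations was -0.24. With a replicate block 6 of the 9 genes fell, and 645 of all genes fell and 351 rose. With the numbers crossed, an alternative added after the data were seen, 6 of the 9 fell, and 1235 of all genes fell and 943 rose. Ogn, Lum and Slc6a13 are limited by depth, with transcripts covered less than once per base in Ctrl_2.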
